A study of Mus musculus with 12 samples.

Results

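The Adam and Adamts genes were described by their DNA methylation peaks in adult mouse hippocampus. A gene was a member when its name in the peak lists began with Adam and a digit, or with Adamts, and every peak assigned to such a name was kept. This gave 899 of 295704 peak assignments, at 47 of the 14146 genes with a peak. RefSeq lists 58 genes with such names, so 11 had no peak under their own name in any library. MeDIP-Seq enriches DNA fragments with an antibody against 5-methylcytosine, and a peak is a place with more reads than background in 1 library. Such a call says where enrichment passed a limit and gives no level of methylation. Coordinates follow build mm10 (GRCm38).

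All mice were C57BL/6J males, and hippocampal DNA was taken at postnatal day 70. The Ethanol group was exposed before birth through dams that drank 10% ethanol in water by choice, with access that per the study's methods went on after birth. The Stress group was isolated from the dam daily for 3 h, on postnatal days 2 to 14. The Ethanol + stress group had both exposures, and the Control group had neither. Each group had 2 enriched libraries from individual mice, here called libraries 1 and 2, and 1 input library from another mouse of the same group. Since each group had an input of its own for peak calling, treatment and input cannot be told apart. The peaks come from DNA, so the tissue could not be checked against expression markers. Libraries had 22805 to 51747 peaks. The 2 Control libraries (27655 and 24017) and Ethanol library 2 (22805) had the fewest, and gained and lost peaks move with these totals.

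ADAM proteins are membrane proteins with a metalloprotease-like and a disintegrin-like domain. The active ones shed the outer parts of other membrane proteins such as Notch receptors, growth factors and the amyloid precursor protein, while catalytically inactive ones act in adhesion. Many rodent Adam genes are expressed mainly in testis or epididymis, where their proteins mature sperm and act in sperm migration and egg binding. ADAMTS proteins are secreted, carry thrombospondin repeats and cut matrix proteins, among them the lecticans of the perineuronal matrix, procollagens and fibrillins; the Adamts-like proteins have the repeats without the protease. Members were therefore grouped as testis-type Adam (22 genes), other Adam (12), Adamts (19) and Adamts-like (5).

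A few stretches show what the peaks covered. Each is written 5′ to 3′ on the strand of the gene the peak was assigned to, from the RefSeq GRCm38 genome, with CG dinucleotides in capitals, the sites at which most cytosine methylation of adult tissue occurs. The first 3 lie at the testis-type genes with recurrent promoter peaks, and the next 2 show a CpG-poor and a CpG-rich stretch just before a start site without a peak.
Adam30 upstream (chr3:98160334-98160633, plus strand): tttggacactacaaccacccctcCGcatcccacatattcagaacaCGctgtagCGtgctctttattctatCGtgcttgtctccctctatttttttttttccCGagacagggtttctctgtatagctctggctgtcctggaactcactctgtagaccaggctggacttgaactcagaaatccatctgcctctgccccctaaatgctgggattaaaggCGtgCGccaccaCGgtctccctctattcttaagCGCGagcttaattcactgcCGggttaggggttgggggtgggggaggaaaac
Adam1a coding exon (chr5:121520071-121520270, minus strand): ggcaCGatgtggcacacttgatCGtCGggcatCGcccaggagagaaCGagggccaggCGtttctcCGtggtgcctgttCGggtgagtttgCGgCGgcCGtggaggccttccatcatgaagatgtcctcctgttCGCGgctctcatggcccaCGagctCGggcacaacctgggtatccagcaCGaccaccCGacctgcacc
Adam1b coding exon (chr5:121501977-121502176, minus strand): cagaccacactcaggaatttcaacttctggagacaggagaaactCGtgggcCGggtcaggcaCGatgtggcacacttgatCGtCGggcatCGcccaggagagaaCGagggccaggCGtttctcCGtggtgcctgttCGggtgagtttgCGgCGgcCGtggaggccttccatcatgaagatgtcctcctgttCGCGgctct
Adam29 upstream (chr8:55906965-55907164, minus strand): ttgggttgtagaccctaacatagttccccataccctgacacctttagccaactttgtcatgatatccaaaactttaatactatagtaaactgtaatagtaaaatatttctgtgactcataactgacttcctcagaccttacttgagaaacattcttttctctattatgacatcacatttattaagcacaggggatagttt
Adamts2 upstream (chr11:50601885-50602084, plus strand): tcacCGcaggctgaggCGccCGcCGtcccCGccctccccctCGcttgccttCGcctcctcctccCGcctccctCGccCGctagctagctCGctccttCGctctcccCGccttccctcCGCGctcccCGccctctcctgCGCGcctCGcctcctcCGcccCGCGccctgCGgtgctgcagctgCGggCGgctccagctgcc
The Adam30 stretch ends at the base before the annotated transcript and holds 11 CpG in 300 bases. The Adam1a and Adam1b stretches, centred on the median summit, hold 17 and 15 CpG in 200 bases. The Adam29 stretch holds 0 and the Adamts2 stretch 25 CpG in 200 bases.

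Member peaks followed the size of the peak list. Ethanol libraries 1 and 2 had 129 and 67 member peaks, Stress libraries 125 and 172, and Ethanol + stress libraries 126 and 112, against 93 and 75 in Control libraries. As a share of all peaks these were 0.281 and 0.294% in Ethanol, 0.311 and 0.332% in Stress, and 0.292 and 0.310% in Ethanol + stress, against 0.336 and 0.312% in Control libraries. The numbers thus spread 2.57-fold over libraries while the shares spread 1.20-fold, and the share was no higher in any treated library than in Control library 1. The median fold enrichment of member peaks lay between 6.97 and 8.45 in the 8 libraries, and that of all peaks between 6.97 and 8.22.

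**Figure D1:**
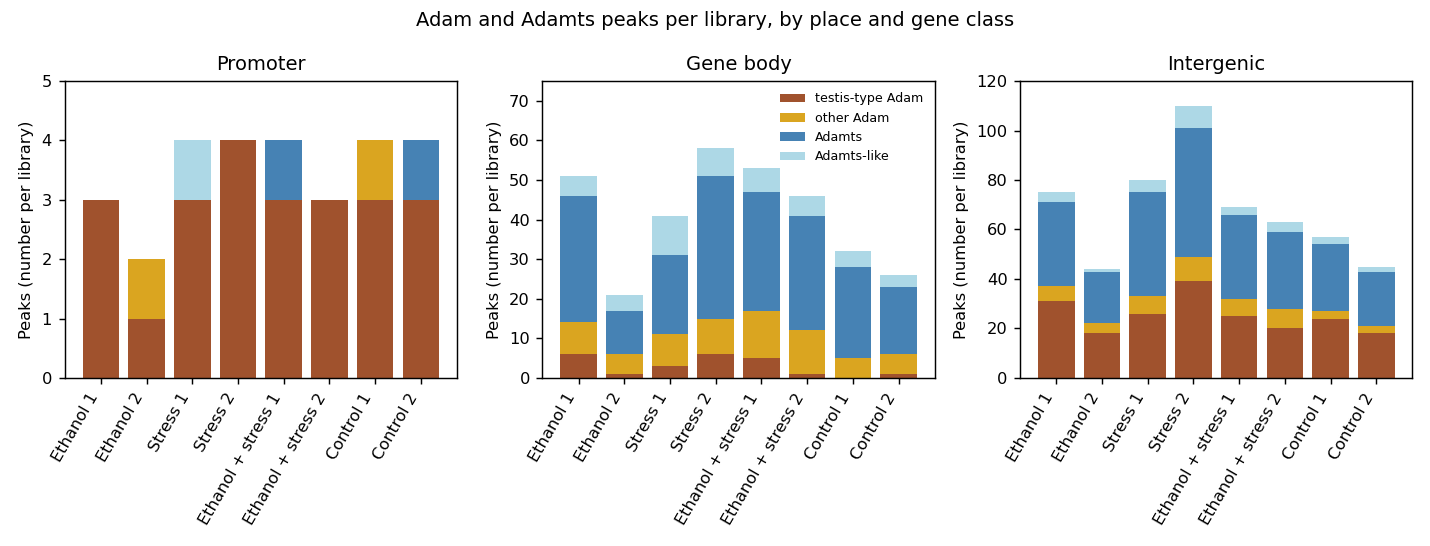
Number of peaks assigned to Adam and Adamts genes (vertical axes, peaks per library, with a scale of its own in each panel) in each of the 8 libraries, split by place and by gene class (colours). Promoter peaks number 2 to 4 per library and are mostly at testis-type Adam genes, gene-body peaks 21 to 58 and mostly at Adamts genes, and intergenic peaks 44 to 110.

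By the names in the files, testis-type and matrix-type genes differed in where their peaks lay. A promoter peak has its summit within 2000 bp of the start site in the files, a gene-body peak lies between the gene's start and end beyond that window, and an intergenic peak lies outside the gene with the nearest start site. Of the 247 peaks at testis-type Adam genes, 23 were in promoters, 23 in gene bodies (9.31%) and 201 intergenic (81.4%). Of the 463 peaks at Adamts genes, 2 were in promoters, 198 in gene bodies (42.8%) and 263 intergenic (56.8%). Over the whole series 25.7% of assignments were in gene bodies and 71.5% intergenic. A promoter peak in at least 1 library was found for 5 of 22 testis-type genes (22.7%), 2 of 12 other Adam genes (16.7%), 1 of 19 Adamts genes (5.26%) and 1 of 5 Adamts-like genes, where 9.74% of all protein-coding genes, matched by symbol, had one. Gene bodies went the other way, with 5 of 22 testis-type, 7 of 12 other Adam and 15 of 19 Adamts genes (31.3% of all protein-coding genes). The classes also differ in gene length, with a RefSeq median of 8.35 kb for testis-type and 114 kb for Adamts genes, and a longer gene can hold more peaks. The split further depends on naming by the nearest start site. With overlapping peaks merged, 22 of 56 intergenic testis-type regions lay inside a protein-coding gene, 9 of them inside another member. For Adamts names this was 12 of 90, all inside the gene itself by its RefSeq span. No test was run on these counts, since the classes were set with results of these data known.

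Adam30, a testis-expressed gene with a single exon on chromosome 3 (98160634 to 98164169, plus strand), was the only member with a promoter peak in all 8 libraries. Over the series 9.73% of genes with any promoter peak had it in all 8. Fold enrichment was 20.7 and 6.25 in Ethanol, 9.19 and 19.1 in Stress, and 17.2 and 12.1 in Ethanol + stress libraries, against 7.31 and 8.78 in Control libraries. Ethanol library 2 lay below both Control libraries and the other 5 treated libraries above them. Ethanol thus overlapped Control while Stress and Ethanol + stress did not. Such an order was common in the series. With overlapping peaks merged, 47.6% of regions with a peak in all 8 libraries had both Stress folds above both Control folds. For Ethanol + stress this share was 33%. With 2 against 2 libraries a two-sided exact permutation test cannot give a p below 0.333, and a fold taken over the input of the group is not a level to compare between groups. All 8 summits lay between 222 bp upstream and 45 bp downstream of the start site in the files, which is 177 bp inside the RefSeq transcript. In 5 libraries the peak covers the whole stretch printed above, in Ethanol library 2 it leaves out the first 116 bases and in Control libraries the first 105 and 107, and in all 8 it runs into the coding sequence (98160853 to 98163051).

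Adam1a and Adam1b encode the alpha subunits of fertilin, a sperm surface protein complex. Adam1a had a promoter peak in 7 libraries, with folds of 10.9 in Ethanol library 1 (none in Ethanol library 2), 5.65 and 9.11 in Stress and 6.43 and 7.10 in Ethanol + stress libraries, against 9.77 and 10.4 in Control libraries. Adam1b had one in 5 libraries, with folds of 7.22 in Ethanol library 1, 6.94 in Stress library 2 and 4.70 in Ethanol + stress library 1, against 10.6 and 11.1 in Control libraries. Every Adam1b fold in a treated library was thus below both Control folds, and 3 treated libraries had no peak. A fold taken over the input of the group is not a level to compare between groups. How many promoters of the series show such an order was not counted. By the −log10 q-value of the peak calling, Adam1b had 57.3 and 59.4 in Control libraries. It had 62.2 in Stress library 2, above both, but 50.2 in Ethanol library 1 and 33.9 in Ethanol + stress library 1. These peaks are not at the start site itself. The summits of Adam1a lay 1451 to 1645 bp and those of Adam1b 870 to 929 bp downstream, all within the single coding exon of each gene on chromosome 5. All Adam1b summits also lay inside the span of another protein-coding gene, Tmem116. The coding sequences of both genes are 82.4% identical, but the spans covered by the peaks aligned over 760 bp with 99.7% identity and shared an unbroken run of 663 identical bases. The printed stretches share 142 bases in a row. Short reads from this run fit both copies, so how the enrichment divides between Adam1a and Adam1b is uncertain.

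The other 6 members with a promoter peak had it in 1 or 2 libraries. Adam3, which sperm need to pass the uterotubal junction, had one in Stress library 2 (fold 5.80) and in Ethanol + stress library 2 (7.06), 1.58 and 1.95 kb upstream and within the neighbouring Adam5. Adam2, the beta subunit of fertilin, had one in Stress library 1 (5.63). Adam33, linked to airway remodelling, had one in Ethanol library 2 (6.25), and Adam9, a widely expressed sheddase, in Control library 1 (5.64). Adamtsl1 had one in Stress library 1 (8.35). Adamts12, which cuts cartilage oligomeric matrix protein, had one in Ethanol + stress library 1 (6.77) and one in Control library 2 (7.89), and these lay 1.20 kb apart. None of these 6 genes had a promoter peak in both libraries of any group.

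**Figure D2:**
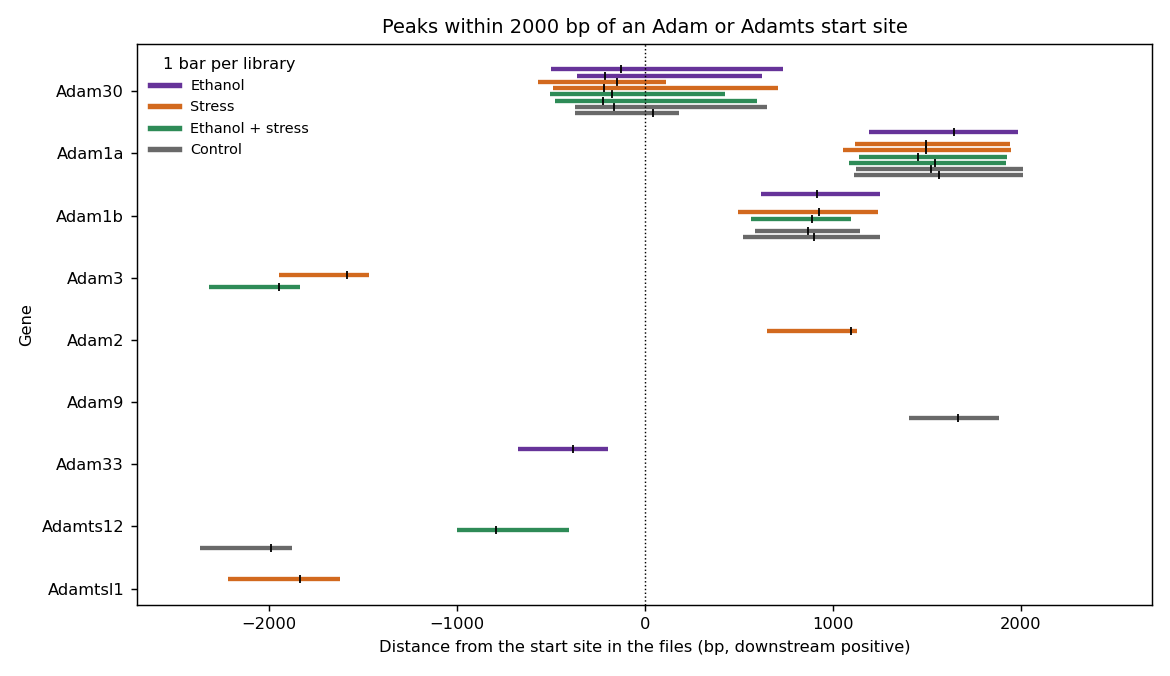
Peaks with a summit within 2000 bp of a member's start site, drawn to scale by their distance from it (horizontal axis, bp). Each bar is 1 peak in 1 library, coloured by group, and the black tick is its summit; the Adam30 bars cross the start site in all 8 libraries, while the 7 Adam1a and 5 Adam1b bars lie downstream in the coding exon.

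Start sites of testis-type Adam genes were poorer in CpG than those of most other members. Within 500 bp either side of the start site, testis-type Adam genes had a median of 0.549 CpG per 100 bp and a median ratio of observed to expected CpG of 0.153, and 0 of 22 exceeded 0.6. Other Adam genes exceeded 0.6 in 8 of 12 cases and Adamts genes in 13 of 19 and Adamts-like genes in 1 of 5, as did 43.3% of all protein-coding genes. Members with a peak under their name were measured at the start site in the files. The other members and all protein-coding genes were measured at the RefSeq 5′ end. For Adamts9 (0.247) the start site in the files lay 42093 bp from the nearest RefSeq transcript start. Adam30 had the highest value of the testis-type genes, 0.506, with 3.40 CpG per 100 bp. Adam1a (0.227) and Adam1b (0.244) were lower at their start sites, and Adam32, a further testis-type gene at 0.493, had no promoter peak. None of the 13 Adamts genes above 0.6 had a promoter peak, among them Adamts2, a procollagen N-proteinase, at 0.859. Over all genes 6.29% of those above 0.6 and 12.4% of the rest had a promoter peak.

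**Figure D3:**
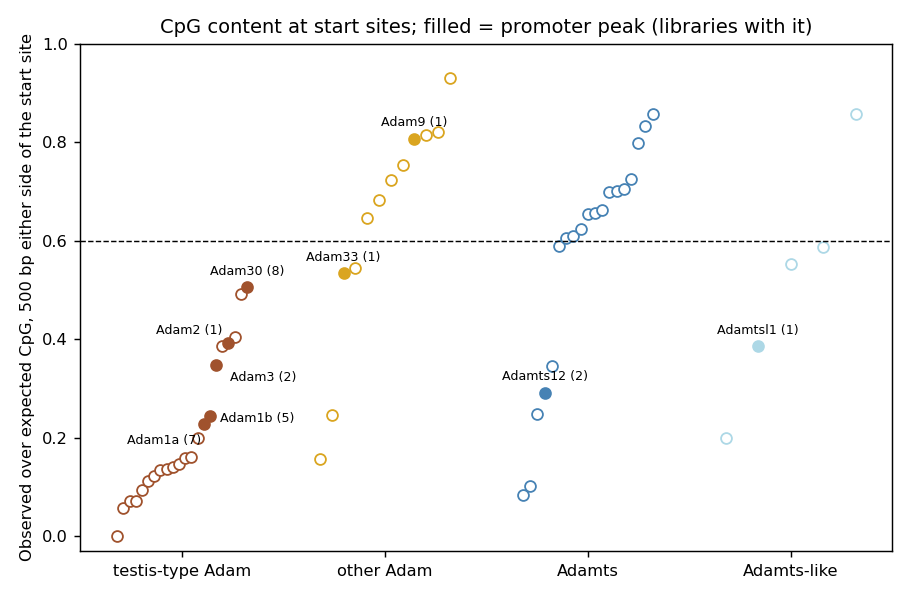
Ratio of observed to expected CpG in the 500 bp either side of the start site (vertical axis) for each of the 58 genes, by class. Filled points had a promoter peak, with the number of libraries in brackets; all 22 testis-type genes lie below the dashed line at 0.6, and 13 of 19 Adamts genes lie above it.

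Overlapping peaks of the 8 libraries were merged into 299 regions assigned to members. Of these 27 (9.03%) had a peak in all 8 libraries, against 9.76% of all regions, and 122 (40.8%) had one in 1 library, against 38.7%. Testis-type genes had 10 of 71 regions in all 8 libraries, other Adam genes 3 of 39, Adamts genes 12 of 160 and Adamts-like genes 2 of 29. Of the 10 testis-type regions only the Adam30 promoter lay in the gene it was assigned to.

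Within gene bodies as the files give them, 9 regions in 6 genes were found in all 8 libraries, and all were intronic. Adamts17, whose protein acts in fibrillin-rich matrix, had the strongest, 152 kb into the gene (chr7:66991079-66992140). Its folds were 23.4 and 12.7 in Ethanol, 23.7 and 36.5 in Stress and 25.5 and 14.98 in Ethanol + stress libraries, against 25.3 and 24.5 in Control libraries. Both Ethanol values were thus below Control, and the other treated groups had values on either side. Adam12, a protease also known as meltrin alpha, had folds of 16.1 and 13.4 in Ethanol, 13.8 and 20.5 in Stress and 14.6 and 11.3 in Ethanol + stress libraries, against 13.6 and 8.78 in Control libraries. Adam19, which sheds neuregulins, varied least and stayed between 10.0 and 14.5 in all 8. Adamts15, a lectican-cleaving protease, had folds of 10.8 to 18.8, and the strongest of 3 such regions in Adamts12 had folds of 7.52 to 22.2. The stronger of 2 regions in Adamtsl3 had folds of 6.97 to 18.5. Both Ethanol values were below both Control values at Adam19. Both Stress values were above both Control values at Adam12, Adam19, Adamts15 and the named Adamts12 region, and both Ethanol + stress values at the named Adamts12 and Adamtsl3 regions. Over all 27 member regions with a peak in every library, both Stress folds were above both Control folds in 18 and below in 0, where 47.6% of such regions in the series were above and 6.91% below. For Ethanol the counts were 4 above and 3 below (15.7 and 8.94% of the series), and for Ethanol + stress 8 above and 2 below (33 and 13.5%). A fold over the input of the group carries that input into every such difference, and its part was not tested.

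Among the 27 regions in all 8 libraries, the 6 with the highest fold percentile within libraries (medians of 95.7 to 98.8) were at least 95% repeat-masked in the genome and held 3.15 to 4.73 CpG per 100 bp. The other 21 ranged from 9.73 to 100% and from 0.42 to 4.51 CpG per 100 bp. The median was 3.13 CpG per 100 bp for the 27 regions and 1.23 for member regions in 1 library, and over all regions of the series 2.11 and 1.25. The following lines give 200 bases around the median summit of 3 regions that were assigned to different members. The first and second had peaks in all 8 libraries, and the third in both Ethanol and both Stress libraries only.
Adam5 intron (chr8:24760740-24760939, minus strand): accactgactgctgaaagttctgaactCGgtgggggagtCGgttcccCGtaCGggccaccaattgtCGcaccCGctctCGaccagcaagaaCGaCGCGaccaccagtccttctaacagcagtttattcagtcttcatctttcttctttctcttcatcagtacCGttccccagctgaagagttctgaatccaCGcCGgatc
Adamts17 intron (chr7:66991606-66991805, plus strand): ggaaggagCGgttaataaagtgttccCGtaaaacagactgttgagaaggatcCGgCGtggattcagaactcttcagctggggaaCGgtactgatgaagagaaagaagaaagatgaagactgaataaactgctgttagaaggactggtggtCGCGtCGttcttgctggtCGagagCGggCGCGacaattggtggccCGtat
Adam29 distal (chr8:55448549-55448748, minus strand): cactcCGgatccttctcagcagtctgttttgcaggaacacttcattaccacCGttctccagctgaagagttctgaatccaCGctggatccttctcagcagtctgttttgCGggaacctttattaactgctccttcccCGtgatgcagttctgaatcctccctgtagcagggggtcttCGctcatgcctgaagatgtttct
The Adam5 intron stretch and the Adamts17 intron stretch are both wholly repeat-masked and share 130 bases in a row on opposite strands, on different chromosomes. The Adam29 stretch shares 26 bases in a row with each of them. Reads from such copies may align to more than one place, and the effect of this on the peaks was not tested.

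**Figure D4:**
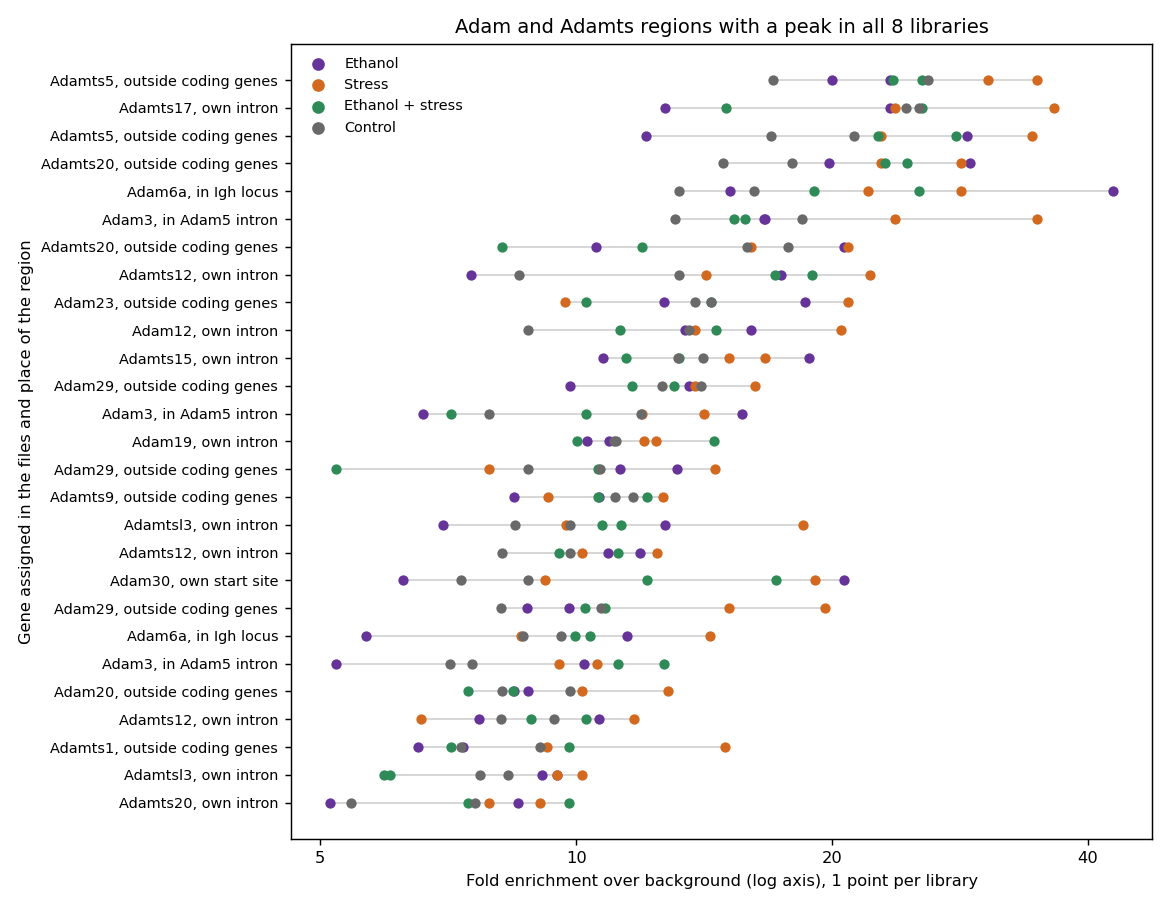
Fold enrichment over background (horizontal axis, log scale) for the 27 Adam and Adamts regions with a peak in all 8 libraries, ordered by median percentile. Each point is 1 library, coloured by group, and the grey line joins the lowest and highest; both Stress points are at higher folds than both Control points in 18 of the 27 rows, and the uppermost 6 rows are regions outside coding genes or in introns of Adamts17 and Adam5.

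The name in the files is that of the gene with the nearest start site, and this moved many peaks between genes. By position, 605 peaks lay inside RefSeq spans of the 58 genes, and 192 of them carried the name of another gene. All 37 peaks inside Adam5, a testis-type gene of 97.3 kb, were named Adam3, and 3 of the 7 regions there were in all 8 libraries. The strongest of these, the wholly repeat-masked region of the Adam5 intron stretch above, had folds of 16.7 and 16.6 in Ethanol and 23.7 and 34.8 in Stress libraries. It had 15.4 and 15.8 in Ethanol + stress libraries, against 18.4 and 13.1 in Control libraries, so both Stress values were above the other 6. How many regions of the series show that order was not counted. Both Stress folds were above both Control folds in 47.6% of those with a peak in all 8 libraries. Adamts13, the protease that trims von Willebrand factor, had no peak under its name, yet 9 peaks in all 8 libraries lay inside it under the name Cacfd1. Adam22, a catalytically inactive receptor for Lgi proteins at synapses, had 4 peaks under its name and 17 inside its span, 13 of them named Sri. Adamts2 had 25 of 45 and Adam12 had 18 of 57 inside peaks under other names, and Adam18 had 16 of 24.

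The reverse held for several testis-type names and for some matrix-type ones. All 52 peaks named Adam29 lay outside protein-coding genes, 67.0 to 458 kb from its start. So did all 46 named Adamts5, 174 to 700 kb from its start, and all 17 named Adamts1, 13.2 to 124 kb from its start. All 40 named Adam6a lay in the immunoglobulin heavy chain locus, in whose midst Adam6a and Adam6b sit, 87.1 kb to 1.10 Mb from its start. Of the 13 regions named Adam30, 10 lay in Notch2, the Notch receptor gene next to it. Counted by position, peaks per 100 kb and library numbered 2.06 for testis-type, 1.00 for other Adam, 1.72 for Adamts and 0.874 for Adamts-like genes, against 1.47 for all protein-coding genes. Of the 101 testis-type peaks 61 lay in Adam5 and Adam18 and 13 of the 22 genes had none, and without those 2 genes the testis-type value was 1.13. No peak lay inside the spans of Adam10 and Adam17, the main sheddases of Notch, the amyloid precursor protein and tumour necrosis factor, or inside Adam15, Adamts4 and Adamts5, of which the last pair are the chief aggrecanases. Adam28, Adamts1, Adamtsl2 and Adamtsl4 also had none, and 36 of the 58 genes had a peak inside. The share over all protein-coding genes was not computed. For Adamts20, Adamts9 and Adamtsl1 the start site in the files lay over 10 kb downstream of the RefSeq 5′ end. At Adamts9 and Adamtsl1 peaks between both places, such as 25 of the 42 named Adamtsl1, were counted as intergenic. At Adamts20 the gene in the files also ended short of the RefSeq 3′ end (94351431 against 94268314). Peaks past that end, such as those of the intron region from 94323710, were counted as intergenic.

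A region or gene was called gained when both libraries of a treated group and neither Control library had a peak, and lost in the opposite case. No member promoter was gained or lost in any treatment, out of 6 tested in Ethanol, 8 in Stress and 6 in Ethanol + stress. Over all genes 3.88% of promoters were gained and 1.78% lost in Ethanol, 11.9 and 1.4% in Stress, and 8.16 and 0.967% in Ethanol + stress. Such a call has no p-value of its own, since 2 against 2 libraries cannot reach the threshold.

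In Ethanol 6 of 178 member regions were gained and 5 lost, where 4.31% of all regions were gained and 1.42% lost. The 6 gained regions were assigned to Adam29, Adam12, Adam6a, Adam8, Adamts20 and Adam3. With equal peak numbers, that is with the strongest 22805 peaks of each library, those of Adam6a, Adam8 and Adamts20 kept the call. The one named Adam8, a leukocyte sheddase, lay in an intron of the neighbouring Tubgcp2, and those in Adamts20 and Adam3 lay in introns of these genes, with folds of 9.38 and 5.18 for Adamts20 and 6.46 and 4.76 for Adam3. The 5 lost regions were assigned to Adamts3, Adamtsl1, Adamts12, Adamts17 and Adamts6, so none was at an Adam gene. With equal peak numbers those of Adamts3, Adamtsl1 and Adamts17 kept the call, and those of Adamts12 and Adamts6 did not. Adamts3, an activator of the lymphatic growth factor VEGF-C, had folds of 7.31 and 7.89 in the Control libraries at its lost intronic region. The Adamts12 region lies at the edge of the promoter window, with a median summit 2.02 kb upstream, and had folds of 6.06 and 7.89 in the Control libraries. At the gene-body level Adam3 and Adamts20 were gained and Adamts19 and Adamts6 lost, 2 of 23 genes each way, against 4.53 and 1.04% of all genes. Both gains rest on the names and gene models in the files. Inside the RefSeq spans, whatever the name, Adamts20 had 3 peaks in each Control library and Adam3 had 1 in Control library 1, named Adam18. Adamts19, an orphan matrix protease, is named because so few genes were called, after its values were seen.

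In Stress 25 of 235 member regions in 13 genes were gained and 2 lost, where 11.8% of all regions were gained and 1.12% lost. The 25 comprised 8 regions at testis-type Adam, 2 at other Adam, 9 at Adamts and 6 at Adamts-like names. The region named Adam30 with the highest rank lay in a coding exon of Notch2 (chr3:98146021-98146955). It had folds of 10.2 and 17.5 in Stress libraries and no peak in Control libraries, and Ethanol library 1 (10.2) and both Ethanol + stress libraries (7.77 and 6.23) had it too. Next came regions named Adam29 (folds 9.25 and 9.91), Adamts20 (8.80 and 10.8), Adamtsl1 (8.80 and 10.3), Adamts9 (8.80 and 9.49) and Adam24 (8.35 and 10.3). Of these, the Adamts20, Adamtsl1 and Adamts9 regions lay in introns of the RefSeq models. Adam23, another inactive Lgi receptor, Adamts3, Adam12 and Adamts12 completed the first 10 members. With equal peak numbers 6 of the 25 kept the call, the first 6 named here. Adamtsl1 alone had 5 of the 25 regions, all in introns. The 2 lost regions were the Adamts17 and Adamts6 introns also lost in Ethanol, of which the Adamts17 call held with equal peak numbers. Both comparisons share the Control libraries. At the gene-body level Adam3 and Adam32 were gained and Adamts19 and Adamts6 lost, 2 of 26 genes each way, against 12.2 and 0.711% of all genes; Adam32 was named after its values were seen. By position the Adam3 gain again met that Control peak, and Adamts19 was not lost, with 1 and 2 peaks inside its RefSeq span in Stress libraries that carried other names, while the Adam32 and Adamts6 calls held.

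In Ethanol + stress 14 of 196 member regions in 11 genes were gained and 3 lost, where 8.25% of all regions were gained and 0.976% lost. The first by rank was the Adamts20 intron region also gained in Stress (folds 7.91 and 10.8), followed by regions named Adamts5 (9.55 and 7.06), Adamts17 (7.82 and 7.06), Adam8 (11.6 and 7.06), Adam12 (6.77 and 7.06), Adamts14 (6.43 and 8.89), Adam30 (7.77 and 6.23), Adam23, Adamtsl3 and Adamts9. Cut to the same number of peaks, 2 of the 14 kept the call, the Adamts20 intron and the Adam30 region in Notch2. Those of Adamts17, Adam12 and Adamts14 lay in introns of the genes themselves. The region named Adamts5 lay between genes, 700 kb upstream of the Adamts5 start. The 3 lost regions were assigned to Adamts20, Adam29 and Adamts6, and with equal peak numbers that of Adam29 alone kept the call. At the gene-body level Adam22 and Adamts20 were gained and Adamts6 lost, out of 27 genes, against 8.7 and 0.656% of all genes; Adam22 was named after its values were seen. By position neither gain held, since the Control libraries had 1 and 2 peaks inside Adam22, all named Sri, and 3 each inside Adamts20. In each treatment the gained share of member regions was below that of all regions (3.37% in Ethanol, 10.6% in Stress and 7.14% in Ethanol + stress). The lost share was 2.81% in Ethanol, 0.851% in Stress and 1.53% in Ethanol + stress, on 5, 2 and 3 regions.

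**Figure D5:**
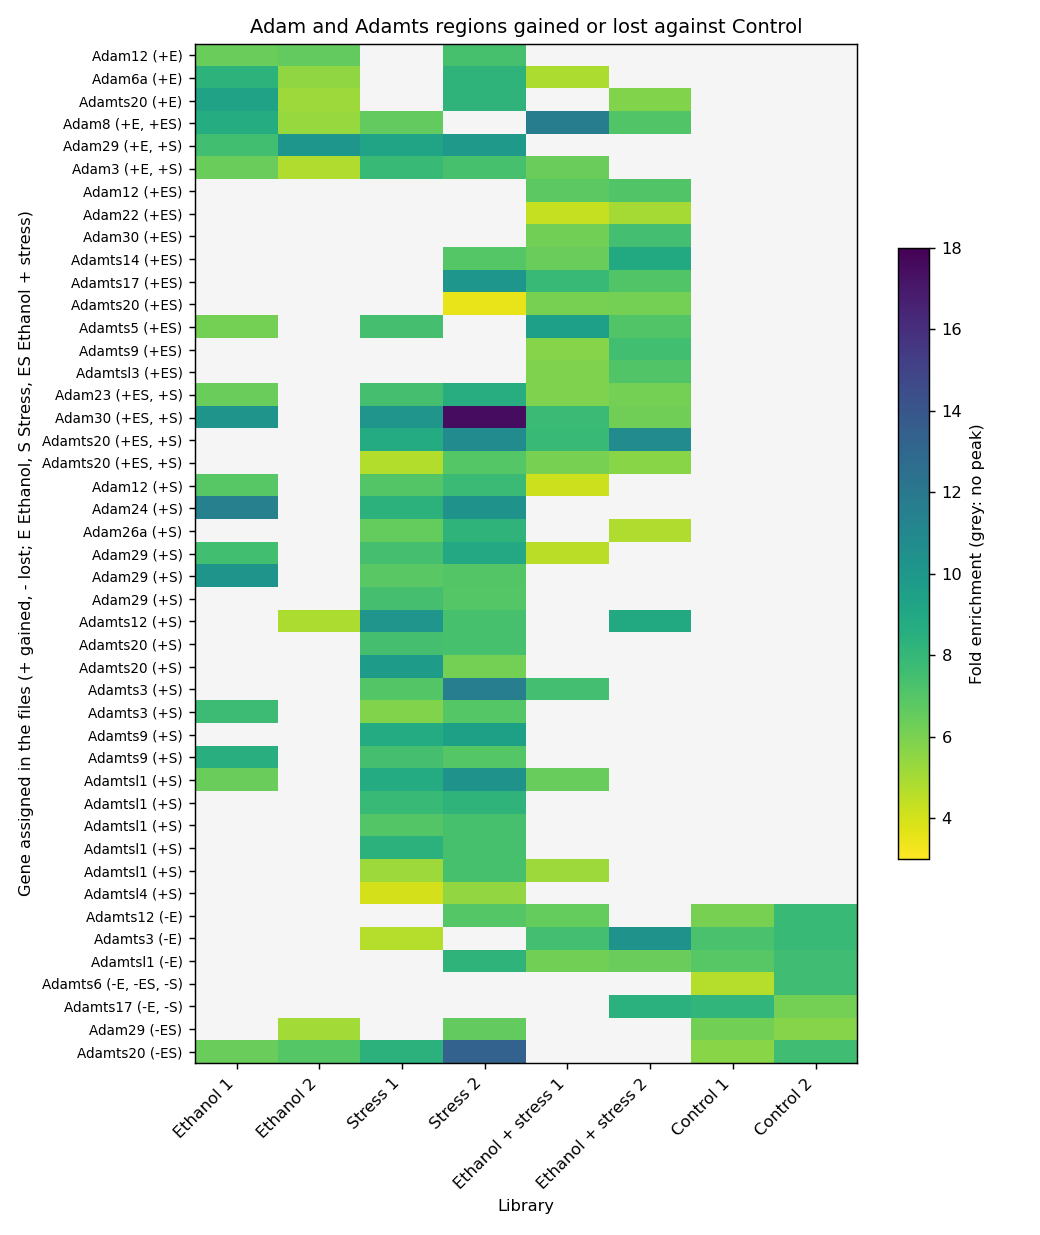
Fold enrichment (colour) in each library (columns) for the 45 different Adam and Adamts regions gained or lost against Control in any treatment, with the calls after the gene name (+ gained, - lost, E Ethanol, S Stress, ES Ethanol + stress). Grey marks no peak; the 38 upper rows have no peak in either Control library, and the Adamts6 row has peaks in the Control libraries only.

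The Adamts6 region was 1 of 299 member regions lost in all 3 treatments, where 0.132% of all regions were, and the 3 comparisons share the Control libraries. Adamts6 encodes a matrix protease related to Adamts10. The region (chr13:104343608-104344162) lies in an intron 56.0 kb from the start, and its folds were 4.65 and 7.61 in the Control libraries with no peak in the 6 treated libraries. By fold the peak was at the 2.59 percentile of the peaks of Control library 1 and the 42.4 percentile of those of Control library 2, and the call did not hold when every library was cut to the same number of peaks. The stretch around its summit is shown because it holds 0 CpG in 200 bases.
Adamts6 intron (chr13:104343784-104343983, plus strand): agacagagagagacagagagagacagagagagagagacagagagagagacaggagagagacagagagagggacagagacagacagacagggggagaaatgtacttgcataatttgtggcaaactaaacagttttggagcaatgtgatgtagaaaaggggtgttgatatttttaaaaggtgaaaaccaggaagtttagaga
The whole region of 555 bp holds 2 CpG and the printed stretch opens on a run of short purine-rich repeats.

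Separation was also compared over 4 against 4 libraries, Stress and Ethanol + stress against Ethanol and Control. The two-sided exact permutation test can reach p = 0.0286 over 70 regroupings. Of 299 member regions 2 reached it and both were assigned to Adamts20, whose product cuts versican and whose loss gives belted mice with unpigmented skin. Over all 91177 regions 0.406% reached it with more peaks in separated libraries and 0.00877% with fewer. No region of the series passed Benjamini-Hochberg adjustment of these exact permutation p-values (adjusted p = 1). With so few of the 91177 regions at the smallest p the test can reach, none could pass, so this outcome says nothing about single regions. The first Adamts20 region (chr15:94323710-94324370) lies in an intron and had folds of 8.80 and 10.8 in Stress and 7.91 and 10.8 in Ethanol + stress libraries, against no peak in the 4 Ethanol and Control libraries. Its call held at equal peak numbers. The second (chr15:94446512-94447581) lies upstream of the RefSeq 5′ end and had folds of 4.73 and 6.95 in Stress and 6.08 and 5.68 in Ethanol + stress libraries, against no peak in the other 4. With equal peak numbers its split did not hold. The bases around their summits are given because, of the 299 member regions, only these split the 8 libraries completely by separation.
Adamts20 intron (chr15:94323943-94324142, minus strand): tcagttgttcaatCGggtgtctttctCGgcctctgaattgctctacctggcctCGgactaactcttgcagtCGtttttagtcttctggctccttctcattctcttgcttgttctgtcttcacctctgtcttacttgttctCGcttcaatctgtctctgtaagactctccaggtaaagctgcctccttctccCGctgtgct
Adamts20 upstream (chr15:94447037-94447236, minus strand): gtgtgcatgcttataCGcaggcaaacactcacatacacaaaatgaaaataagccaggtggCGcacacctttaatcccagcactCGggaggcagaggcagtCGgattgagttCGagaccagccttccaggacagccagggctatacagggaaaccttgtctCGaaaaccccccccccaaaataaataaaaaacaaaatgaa
Each holds 6 CpG in 200 bases, and the second is wholly repeat-masked. Adamts20 had the most regions of any member, 32, with 104 peaks, of which 37 lay inside its RefSeq span. It also had a region that went the other way in part, with folds of 6.45 and 6.97 in Ethanol and 8.35 and 13.3 in Stress libraries, no peak in Ethanol + stress libraries, and 5.64 and 7.60 in Control libraries (chr15:94345578-94346276). Prenatal ethanol, compared over Ethanol and Ethanol + stress against Stress and Control, gave 0 member regions at unadjusted p below 0.05, where 0.0834% of all regions were higher and 0.0417% lower.

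Genes that work with these proteases were listed for comparison. Promoter peaks in any library were found at 3 of 7 metalloprotease inhibitor genes (Timp2, Timp3 and A2m), 1 of 14 matrix and neuronal partners (Lgi4, a ligand of Adam11, Adam22 and Adam23), 3 of 17 regulators and shed substrates (Notch3, Tspan15 and Tspan33), 6 of 14 sperm partners (Tex101, Ly6k, Ace, Izumo1, Spesp1 and Cd9) and 3 of 23 Mmp genes (Mmp9, Mmp25 and Mmp28). These lists were chosen with results known, and 9.74% of all protein-coding genes had such a peak. Promoters gained numbered 2 of 10 tested in Ethanol, 2 of 11 in Stress and 4 of 12 in Ethanol + stress, beside the 3.88, 11.9 and 8.16% of all promoters given above; no test was run on these counts. Tspan33, a chaperone of Adam10, and Mmp9 were gained in Ethanol, Timp3 and Mmp28 in Stress, and Timp2, Tex101, Cd9 and Mmp28 in Ethanol + stress. Timp3, an inhibitor of Adam17 and of aggrecanases, had folds of 5.18 and 4.42 in Stress and no promoter peak in Control libraries, and its 2 Stress summits lay at different places, 737 and 1662 bp upstream. Tex101, needed for Adam3 to reach the sperm surface, had folds of 7.12 and 5.68 in Ethanol + stress libraries, with single promoter peaks in Ethanol library 1 (4.35) and Stress library 2 (5.22) and none in Control libraries, and all summits lay within 184 bp of the start site. No promoter of these lists was lost in any treatment.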

How the data were processed

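Hippocampal DNA of 12 mice was profiled by MeDIP-Seq, as 8 enriched and 4 input libraries. According to the submitters' processing notes and the study's methods, the authors aligned reads to mm10 with HISAT2 2.1.0, called peaks per library with MACS against the input of the group at a q-value limit, and annotated each to the nearest RefSeq gene. The methods name an early MACS release, but the deposited columns hold per-peak values usual for later ones, so its release is uncertain. The deposited fold enrichment is a ratio to local background, the deposited q-value is a −log10 value, and the tags at the summit, also deposited, are a score and were not used. Read totals are not given in the sources used here, so depth is unknown and no counting intervals were made. Peak totals stand in its place.

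Peaks were merged across libraries at 1 bp of overlap. Calls, exact permutation tests over libraries and Benjamini-Hochberg adjustment were run on all regions. The computation was tested on simulated data with planted complete splits, which reach the smallest p by construction, so this says nothing of the power of the adjusted test. Gene features, CpG and sequences came from the RefSeq GRCm38 genome, with Python 3.11.15, pandas 2.3.3, pysam and biopython. Members, classes and comparison lists were chosen with earlier results of these data known. Named were every member with a promoter peak, members with a gene-body region in all 8 libraries, and up to 10 members per treatment and direction by the smaller within-library fold percentile. Alternatives were other promoter windows, equal peak numbers, the upper 50% of peaks, stricter merging, leaving out each library and a replicate block. P-values measure only the spread between these libraries. Per the study's methods ethanol was assigned to dams, and pups for separation were drawn from within each litter. The labels used here give no litter, so the permutations took no account of it.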

Additional observations from a re-analysis of the deposited data

Results flagged for a closer look

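A region named Adam29 (chr8:55448271-55449077) had a peak in 4 libraries. Folds were 7.53 and 10.1 in Ethanol and 9.25 and 9.91 in Stress libraries, and there was no peak in Ethanol + stress or Control libraries. Separation thus went with a peak in both libraries without ethanol, and with the lack of one in both libraries with ethanol, and this difference was not tested. It lies 458 kb from Adam29, outside genes, and is 98.3% repeat-masked. The same pattern was found in 181 of 91177 regions of the series (0.199%), of which 1 was a member region. With equal peak numbers the Stress call held and the Ethanol call did not. Groups of 2 libraries are too small to single out an outlying library.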

How the results depend on the processing

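Member peaks averaged 112 per library, of which 3.50 were in promoters and 41.0 in gene bodies. A promoter window of 1000 bp gave 1.88 promoter peaks and no promoter peak at Adam1a, and one of 5000 bp gave 8.63. With 5000 bp, 1 promoter was lost in Ethanol and gene bodies lost in Ethanol and in Stress fell to 1 each. With an equal number of peaks (the strongest 22805 of each library) the averages were 69.0, 2.88 and 23.5, and 3 regions were gained in Ethanol, 6 in Stress and 3 in Ethanol + stress. Gene bodies gained were then 1, 0 and 0, 0 gene bodies were lost in Ethanol + stress, and 1 region reached p below 0.05 for separation. With the upper 50% of peaks the averages were 54.0, 2.38 and 18.5, regions gained were 2, 13 and 7, regions lost 1, 0 and 1, gene bodies gained 0, 1 and 0 and gene bodies lost 0, 0 and 0 in Ethanol, Stress and Ethanol + stress. There 16 regions and 0 promoters were found in all 8 libraries, Adam30 kept its promoter peak in 6, and 1 region reached p below 0.05 for separation. By RefSeq gene span, an alternative chosen after seeing the data, 1 gene body was gained in Ethanol and 1 in Ethanol + stress. By position inside that span under any name, also chosen after seeing the data, 0 were gained in Ethanol and 1 in Ethanol + stress (Adam32), and 1 was lost in Stress; the 2 gained in Stress were Adam2 and Adam32. Of the 25 regions gained in Stress, 6 kept the call on the same borders with equal peak numbers, as did 3 of 6 in Ethanol and 2 of 14 in Ethanol + stress. Counting each peak once and merging at 50% of the shorter peak moved no such count by over 1.5 times.

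With 1 library left out, a call needs the libraries that remain, so counts rise by construction. Regions gained ranged from 6 to 53 in Ethanol, 25 to 92 in Stress and 14 to 51 in Ethanol + stress, with the highest without Ethanol library 2, Stress library 1 and Ethanol + stress library 2. Regions lost ranged from 5 to 25, 2 to 23 and 3 to 24, each highest without Control library 2. Promoters gained ranged from 0 to 1, 0 to 2 and 0 to 1 and promoters lost from 0 to 2, 0 to 1 and 0 to 1. Gene bodies gained ranged from 2 to 6, 2 to 7 and 2 to 7 and gene bodies lost from 2 to 7, 2 to 2 and 1 to 3. Regions at p below 0.05 ranged from 2 to 5 for separation (highest without Stress library 1) and 0 to 1 for prenatal ethanol, and promoters in all libraries from 1 to 2, the second being Adam1a without Ethanol library 2. Under a replicate block, with labels permuted within the library number, the smallest p is 0.0556 over 36 regroupings and 0 regions reached 0.05 for separation. Calls within the library number are the same as without the block by construction. Libraries with the same number did not deviate together (correlations of -0.02 to 0.08 over 6 pairs of groups). Depth is unknown, so a missing peak may be one that was not detectable.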
